A study of Sus scrofa with 6 samples.

Results

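The SSEA antigens are sugar epitopes, so a cell displays them only if it has the glycosyltransferases that build them. The genes described here encode 8 glycosyltransferases of these epitopes or of related chains: ST3GAL1, ST3GAL2, FUT1, FUT2, B4GALT1, B4GALT5, B3GALNT1 and B3GNT5. Their members were taken as all probe sets whose platform annotation names exactly 1 of these symbols, which gave 14 of the 23999 probe sets tested and 8 of 6765 named genes. ST3GAL1 had 4 probe sets, B4GALT5 had 3, B3GALNT1 had 2, and each other gene had 1. Where a gene has several, they are called A, B, C and D here, in the alphabetical order of their identifiers. Probe sets were picked by gene name only, not by measured values. The genes themselves were chosen with earlier results of these data known.

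RNA came from 6 pig cell samples, each hybridised to 1 Affymetrix Pig Genome Array. The somatic samples were embryo fibroblasts (PEF) and stem cells of the amniotic fluid (PAFSC). The 4 induced pluripotent stem (iPS) lines differ in the antigens of their labels. Line 30AC5 is labelled with SSEA1 alone and PS24 with all of SSEA1, SSEA3 and SSEA4. The lines iPF4-2 and iPSCs-w share a label, SSEA3 with SSEA4. All cells were grown in DMEM with 15% FBS for 72 h, and the iPS lines were kept on inactivated feeder fibroblasts of ICR mice, so that line type and feeder layer cannot be told apart. The way the lines were reprogrammed is not given in the sources used here. Each line is 1 sample with no stated repeat culture, so the p-values between iPS lines measure only the spread between these lines. Where iPS lines are tested against both somatic samples, the spread also holds the gap between PEF and PAFSC, which are different cell types.

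SSEA1 is the Lewis x structure, a fucose attached to an N-acetyllactosamine unit, and SSEA3 and SSEA4 are glycolipids of the globo series. Both kinds of glycolipid start from lactosylceramide. B3GALNT1 builds globoside, the precursor of SSEA3, and a sialyltransferase such as ST3GAL2 caps SSEA3 to give SSEA4. B3GNT5 instead starts the lacto and neolacto chains, which B4GALT1 and its relatives can extend and which a fucosyltransferase of the Lewis type then turns into SSEA1. The enzymes that make the last SSEA1 step (FUT4, FUT9) and the globotriose and SSEA3 steps (A4GALT, B3GALT5) were looked up but not measured. No probe set was annotated to any of these symbols alone.

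The values are log2 values relative to an unknown baseline of each probe set. A value can therefore be compared between arrays for the same probe set, but not between genes or between probe sets, and a value of 0 does not mean that the gene is silent. The PAFSC array stood apart, with a standard deviation (SD) of 2.01 over all probe sets against 0.610 to 0.808 on the other arrays and a median of 0.70 against -0.06 to 0.05. It lay outside the range of the other arrays for 10 of the 14 probe sets, 5 above and 5 below, where this held for 77.8% of all probe sets, 50.1% above and 27.7% below. PAFSC values between 1.9 and 2.5 were found for 5 of the 14, against 14.1% of all probe sets. These were ST3GAL1 A and D, ST3GAL2, FUT2 and B3GALNT1 B. Somatic comparisons are therefore given with and without the PAFSC array. The fibroblast markers had a mean over 9 measured genes (of 10 listed) of 3.37 in PEF and 3.30 in PAFSC against -1.19 to 0.38 in the iPS lines, and 7 of the 9 were lower in all iPS lines than in both somatic samples, against 11% of all genes. The exceptions were COL3A1, at 0.00 in PEF and 0.01 to 0.72 in the iPS lines, and LUM, at 3.77 in iPF4-2 and 1.59 in PAFSC. POU5F1, the pluripotency factor OCT4, was at 3.68 and 3.61 in iPF4-2 and iPSCs-w but at 0.07 and -0.07 in PS24 and 30AC5, although all 4 lines are labelled pluripotent.

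**Figure D1:**
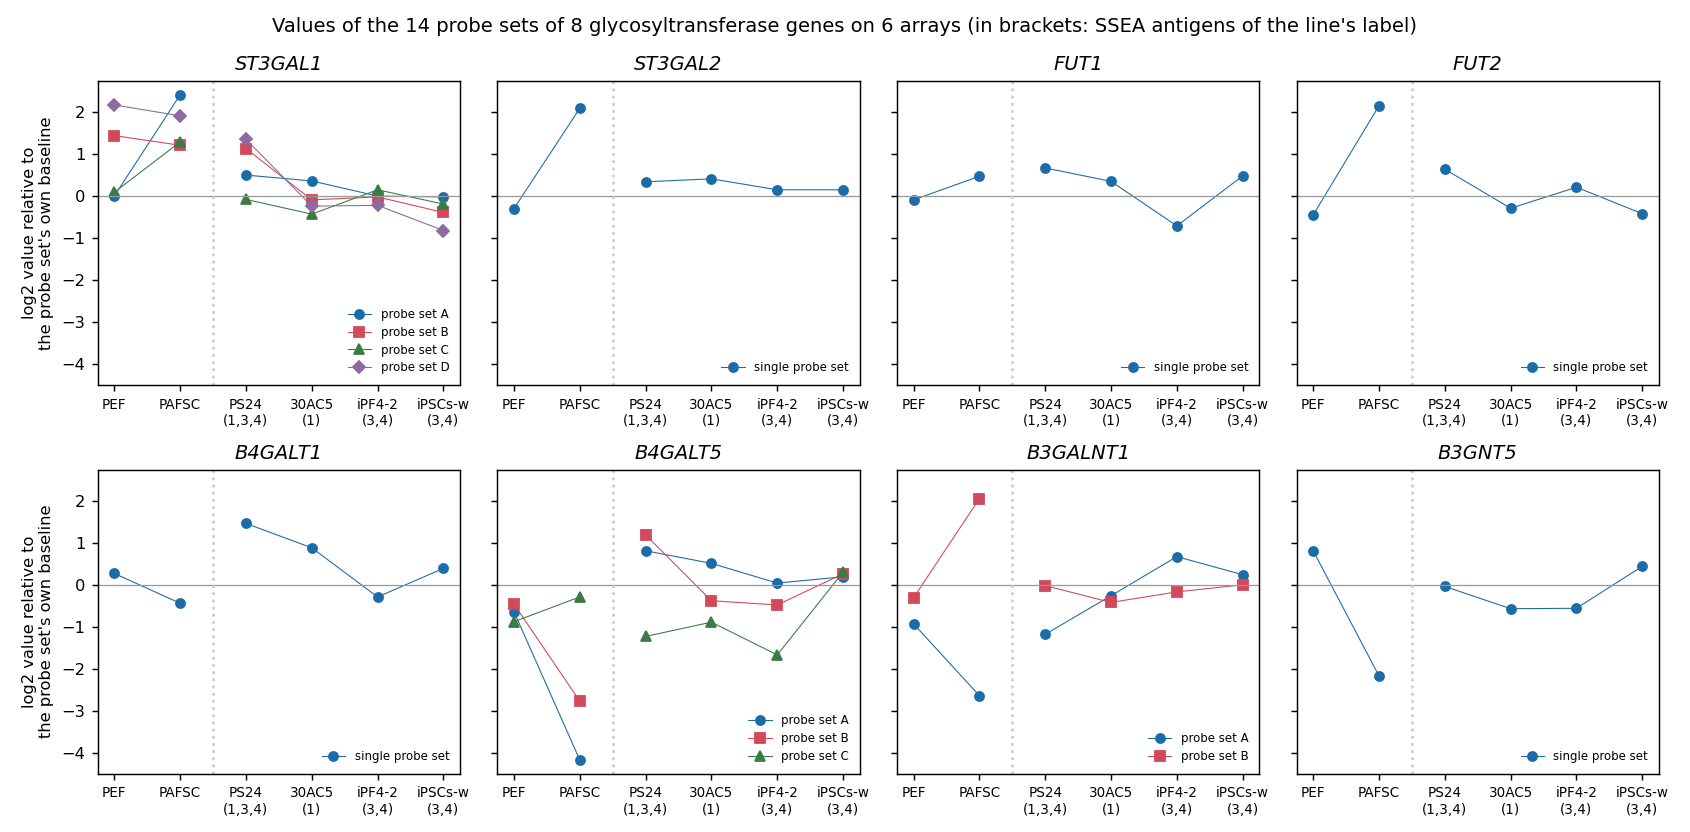
Each panel plots the log2 value (vertical axis, relative to the probe set's own baseline) of every probe set of 1 gene on the 6 arrays, with the SSEA antigens of each iPS line's label in brackets; symbols and colours mark probe sets, and lines only join values of the same probe set. PAFSC is the most spread array, with values from -4.16 for a B4GALT5 probe set to 2.42 for an ST3GAL1 probe set, while B4GALT1 is highest in PS24 and 30AC5.

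The first group of enzymes acts at the glycolipid core. B4GALT5, one of the enzymes that make lactosylceramide, was measured by 3 probe sets that did not behave alike. On probe set A it was 0.82 in PS24 and 0.52 in 30AC5, then 0.05 in iPF4-2 and 0.20 in iPSCs-w, with -0.63 in PEF and -4.16 in PAFSC. All 4 iPS lines lay above both somatic samples there, and both SSEA1-labelled lines lay above the other iPS lines. On probe set B it was 1.20 in PS24 and -0.37 in 30AC5, then -0.47 in iPF4-2 and 0.27 in iPSCs-w, with -0.45 in PEF and -2.76 in PAFSC, so that PS24 alone stood above the rest and PAFSC below it. On probe set C it was -1.22 in PS24 and -0.88 in 30AC5, then -1.66 in iPF4-2 and 0.31 in iPSCs-w, with -0.87 in PEF and -0.28 in PAFSC. Here iPSCs-w was the highest array, and PAFSC was not low.

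B3GALNT1, the globoside synthase, gave opposite readings in PAFSC. Its probe set A was -1.17 in PS24 and -0.25 in 30AC5, then 0.68 in iPF4-2 and 0.25 in iPSCs-w, with -0.92 in PEF and -2.63 in PAFSC. Both lines labelled for SSEA3 and SSEA4 alone were the highest arrays, and PS24, which carries the same antigens beside SSEA1, was the lowest iPS line. Probe set B was -0.01 in PS24 and -0.41 in 30AC5, then -0.16 in iPF4-2 and 0.01 in iPSCs-w, with -0.30 in PEF and 2.06 in PAFSC. It spanned 0.42 over the iPS lines, against 1.85 for the first, and it was highest in the array where the first was lowest. The order of the iPS lines thus depended on the probe set read. Less than 1 log2 unit separated the iPS lines for 5 of the 14 probe sets, B3GALNT1 B among them, where this held for 66.6% of all probe sets.

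B3GNT5, which adds the first sugar of the lacto and neolacto chains to lactosylceramide, was -0.03 in PS24 and -0.56 in 30AC5, then -0.55 in iPF4-2 and 0.45 in iPSCs-w, with 0.82 in PEF and -2.16 in PAFSC. PEF was the highest array and all iPS lines lay below it, as they did for 3 of the 14 probe sets and 19.1% of all. For another 3, B4GALT5 A, ST3GAL2 and FUT2, all iPS lines lay above PEF, as for 32.4% of all. For FUT2 this rested on iPSCs-w at -0.41 against -0.44 in PEF. With median centring iPSCs-w was the lower there, at -0.42 against -0.38. For 8 probe sets PEF lay inside the range of the iPS lines, as for 48.4%. The lowest iPS values of B3GNT5 came from 30AC5 and iPF4-2, whose labels share no antigen and which were at nearly the same level. The lines with the same label, iPF4-2 and iPSCs-w, differed by -1 (iPF4-2 minus iPSCs-w).

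B4GALT1, a galactosyltransferase that completes N-acetyllactosamine units on glycoproteins and glycolipids, was 1.47 in PS24 and 0.89 in 30AC5, then -0.28 in iPF4-2 and 0.40 in iPSCs-w, with 0.28 in PEF and -0.43 in PAFSC. Both SSEA1-labelled lines stood above all other arrays. The same order, with both SSEA1-labelled lines above PEF and the other iPS lines, held for 4 of the 14 probe sets and for 12% of all probe sets. Besides B4GALT1 it was found in B4GALT5 A, ST3GAL1 A and ST3GAL2.

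The sialyltransferases come last on the SSEA4 route. ST3GAL2, which can add the sialic acid of SSEA4, was 0.35 in PS24 and 0.42 in 30AC5, then 0.16 in iPF4-2 and 0.16 in iPSCs-w, with -0.29 in PEF and 2.10 in PAFSC. PAFSC was far above the rest, but at a level between 1.9 and 2.5 that 14.1% of all probe sets had on that array. PEF was the lowest array, and the iPS lines spanned 0.27, the narrowest range among the 14 probe sets. The line not labelled for SSEA4, 30AC5, had the highest iPS value.

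ST3GAL1, which sialylates mainly O-linked chains and can also act on glycolipids, fell into pairs of probe sets. On probe set D it was 1.36 in PS24 and -0.23 in 30AC5, then -0.21 in iPF4-2 and -0.81 in iPSCs-w, with 2.18 in PEF and 1.92 in PAFSC. On probe set B it was 1.14 in PS24 and -0.08 in 30AC5, then -0.01 in iPF4-2 and -0.38 in iPSCs-w, with 1.45 in PEF and 1.22 in PAFSC. On the deposited scale both somatic samples were high on these probe sets, PS24 was close below them, and the other 3 iPS lines were low.

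The remaining ST3GAL1 probe sets showed no such split. On probe set A the values were 0.51 in PS24 and 0.37 in 30AC5, then 0.01 in iPF4-2 and -0.01 in iPSCs-w, with 0.01 in PEF and 2.42 in PAFSC. On probe set C they were -0.07 in PS24 and -0.42 in 30AC5, then 0.16 in iPF4-2 and -0.18 in iPSCs-w, with 0.10 in PEF and 1.30 in PAFSC. PAFSC alone stood out on both, and PEF lay within the range of the iPS lines. How far probe sets of a gene differed in pattern was measured as the root mean square (RMS) difference over the 6 arrays after centring each on its mean. It was 0.45 between the pair with high somatic values and 0.47 between the other pair, but 0.64 to 1.05 across the pairs.

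For comparison, the median RMS difference was 0.69 over 5022 pairs of probe sets from 2261 genes with several probe sets, and 90% of pairs were at or under 1.71. The B3GALNT1 pair, at 1.82, and B4GALT5 A against B4GALT5 C, at 1.99, exceeded that. In both, PAFSC was the array of largest disagreement. Without PAFSC the values were 0.70 and 0.84, against a median of 0.37 over all pairs.

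The fucosyltransferases FUT1 and FUT2 make the blood group H structure and can act on the same globo chain that ST3GAL2 sialylates. Their genes lie close together in the pig genome, with 3 other genes listed between them in the RefSeq table of assembly Sscrofa11.1. FUT1 was 0.68 in PS24 and 0.36 in 30AC5, then -0.70 in iPF4-2 and 0.49 in iPSCs-w, with -0.08 in PEF and 0.48 in PAFSC. It was the gene with the smallest range over the 6 arrays, 1.39, and iPF4-2 alone was low. FUT2 was 0.65 in PS24 and -0.28 in 30AC5, then 0.22 in iPF4-2 and -0.41 in iPSCs-w, with -0.44 in PEF and 2.16 in PAFSC. PAFSC was the highest array for FUT2, and iPF4-2, the lowest iPS line for FUT1, was the second highest iPS line for FUT2.

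The question of the marker labels was how lines with SSEA1 (PS24 and 30AC5) compare with lines without it in their label (iPF4-2 and iPSCs-w). B4GALT1 was higher by 1.12 on the log2 scale in the SSEA1-labelled lines, and B3GALNT1 A was lower, but neither passed the test. The B4GALT1 means were 1.18 and 0.06 (SE 0.37, limma 95% interval 0.16 to 2.08, adjusted p = 0.389). The B3GALNT1 means were -0.71 and 0.46, a difference of -1.17 (SE 0.40, limma 95% interval -2.21 to -0.13, adjusted p = 0.408). Leaving out each line in turn gave 0.78 to 1.46 for B4GALT1 and -1.63 to -0.71 for this B3GALNT1 probe set. The other B3GALNT1 probe set differed by -0.13 (SE 0.28, limma adjusted p = 0.921).

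In the SSEA1 comparison limma called 0 of the 14 probe sets, against 0.0167% of all probe sets, and 2 of the 14 had an unadjusted p under 0.05, against 11.1%. The classes did not overlap for 5 of the 14, which is 35.7% where 41.2% of all probe sets did. The 4 higher with SSEA1 were B4GALT1, ST3GAL2, ST3GAL1 A and B4GALT5 A, where 21% of all were higher. The 1 lower was B3GALNT1 A, where 20.2% of all were lower. The same 5 were the probe sets whose class difference exceeded the gap between the lines within each class, which held for 27.5% of all probe sets. The median difference over the 14 was 0.36, with 9 above 0, and over all probe sets it was 0.01, with 50.5% above 0.

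No SSEA1 difference of the sialyl- and fucosyltransferases passed the test. ST3GAL2 differed by 0.23 (SE 0.24, limma 95% interval -0.40 to 0.86). The 4 ST3GAL1 probe sets differed by 1.08, 0.72, 0.44 and -0.24, and for the larger pair the gap between PS24 and 30AC5 was bigger than the class difference, at 1.59 and 1.22. Without PS24 these became 0.28 and 0.11. FUT1 differed by 0.63 (SE 0.46, limma 95% interval -0.56 to 1.81), while iPF4-2 and iPSCs-w, which have the same label, differed by -1.19. The FUT1 difference was 0.03 without iPF4-2 and 1.23 without iPSCs-w. FUT2 differed by 0.29 and changed sign without PS24, to -0.18.

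**Figure D2:**
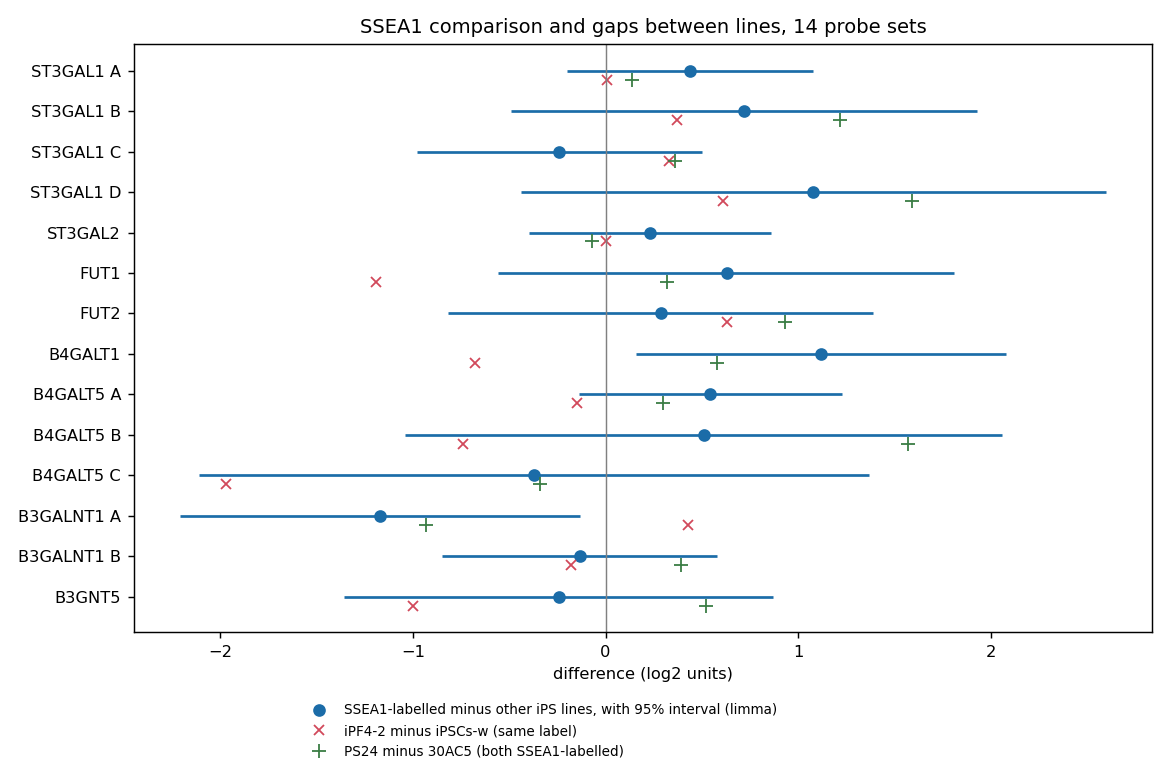
Blue points are the difference in log2 units (horizontal axis) between the mean of PS24 and 30AC5 and the mean of iPF4-2 and iPSCs-w for each of the 14 probe sets, with limma's 95% interval; red crosses are iPF4-2 minus iPSCs-w and green plus signs PS24 minus 30AC5. The interval excludes 0 for B4GALT1 (0.16 to 2.08) and for 1 B3GALNT1 probe set (-2.21 to -0.13) before adjustment, and the same-label gap of FUT1 (-1.19) is larger than its class difference (0.63).

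Cell-state markers differed along with the SSEA1 label, without passing the test. All 4 measured pluripotency markers (POU5F1, DPPA5, DNMT3B and ZFP42, of 9 listed) were lower without overlap in the SSEA1-labelled lines, with list means of -0.41 and -0.46 against 1.91 and 2.24. Of 8 epithelial markers 7 were lower without overlap; for both lists the share of all genes is 23.4%. The epithelial markers had list means of -0.77 in PS24 and 0.15 in 30AC5 against 1.61 and 1.79. The median difference was -2.55 over the first list and -1.83 over the second, and the smallest limma adjusted p of these genes was 0.0514, for POU5F1. Of 6 measured trophectoderm and endoderm markers (of 8 listed) 2 were lower without overlap, GATA6 by a difference of -2.93 and TFAP2C of -2.77 (limma adjusted p = 0.0555 and 0.0597), and 2 were higher, GATA3 at 1.92 and AFP at 0.15, where 20.3% of all genes were higher. The fibroblast list had a median difference of 0.03, with PRRX1 at 3.62 (limma adjusted p = 0.102) the 1 gene of 9 without overlap. Their part in the differences of B4GALT1 and B3GALNT1 was not tested.

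PS24 had the highest value among the iPS lines for 8 of the 14 probe sets, where 29.9% of all probe sets had their highest iPS value in that line, and the lowest for 1, B3GALNT1 A, against 22.6%. The 8 came from ST3GAL1 (3 probe sets), B4GALT5 (2), FUT1, FUT2 and B4GALT1. PS24 and 30AC5 differed by more than 1 log2 unit for 3 of the 14, against 11.1% of all probe sets. PS24 was the higher line in all 3, against 4.39% of all probe sets in that direction, and 0 of the 14 went that far the other way, against 6.72%. The 3 were ST3GAL1 D and ST3GAL1 B, by 1.59 and 1.22, and B4GALT5 B, by 1.57. On the PS24 array the 5' minus 3' value of the GAPDH, actin and EF1A controls averaged -1.86, against 0.01 to 1.13 on the others; its part in these values was not tested.

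The lines that share a label showed how far lines can differ without a difference in their SSEA label. Their other markers were not all alike. LUM was at 3.77 in iPF4-2 and -0.69 in iPSCs-w, while POU5F1 was at 3.68 and 3.61. Between iPF4-2 and iPSCs-w, 2 of the 14 probe sets differed by more than 1 log2 unit, where 10.3% of all probe sets did. iPF4-2 was the lower line for both, as for 5.34% of all, and 0 of the 14 were higher in it by that much, against 4.91%. FUT1 differed by -1.19 and B4GALT5 C by -1.97. iPF4-2 had the lowest iPS value for all 3 B4GALT5 probe sets, for B4GALT1 and for FUT1, which is 5 of 14, where 20% of all probe sets had it lowest. For ST3GAL2 both lines were at 0.16.

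The label for SSEA3 and SSEA4 separates PS24, iPF4-2 and iPSCs-w from 30AC5, which alone lacks it. Since 30AC5 is a single line, it was assumed to vary like the others, and the standard errors hold no spread of its own. In this comparison limma called 0 of the 14 probe sets, against 0% of all probe sets, with 0 of the 14 at an unadjusted p under 0.05, against 5.11%. The 3 labelled lines lay on one side of 30AC5 for 4 of the 14, which is 28.6% where 48% of all probe sets did. B3GNT5, ST3GAL1 C and B3GALNT1 B were higher in all 3 labelled lines, as 27% of all probe sets were, and ST3GAL2 was lower in all 3, as 21% were. The median difference over the 14 was 0.25, with 9 above 0, and over all probe sets 0.04, with 54.3% above 0.

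For the SSEA4 sialyltransferase ST3GAL2 the mean of the labelled lines was 0.22, against 0.42 in 30AC5. The difference was -0.20 (SE 0.29, limma 95% interval -0.98 to 0.58, adjusted p = 1). B3GALNT1 differed by 0.35 on probe set B (SE 0.29, limma 95% interval -0.42 to 1.12) and by 0.16 on probe set A (SE 0.80, limma 95% interval -1.98 to 2.31). Without iPF4-2 the second value was -0.22. B3GNT5 had a mean of -0.05 in the labelled lines against -0.56 in 30AC5, a difference of 0.51 (SE 0.48, limma 95% interval -0.76 to 1.79).

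The iPS lines were then compared with the somatic cells. As deposited, ST3GAL1 D and ST3GAL1 B were lower in all 4 iPS lines than in PEF and in PAFSC, and B4GALT5 A was higher. With median centring PS24 lay above PAFSC on both ST3GAL1 probe sets, at 1.31 against 1.23 on D and 1.09 against 0.52 on B. On ST3GAL1 D the iPS mean was 0.03 ± 0.93 (SD, n = 4) and the difference -2.02 (SE 0.65, limma adjusted p = 0.306). It was -2.15 against PEF alone and -1.90 against PAFSC alone. On ST3GAL1 B the difference was -1.17 (SE 0.56, limma adjusted p = 0.391), with -1.29 and -1.05 against the single samples. On the deposited scale PEF and PAFSC gave nearly the same difference for both probe sets, but not on a rescaled one. PEF minus PAFSC was 0.26 for ST3GAL1 D as deposited and 1.01 with median centring, 1.19 with quantile normalization and 2.43 with a common spread. For ST3GAL1 B it was 0.23 as deposited and 0.98, 1.08 and 1.72 in the same order. ST3GAL1 A instead differed by 0.21 from PEF and -2.20 from PAFSC, and ST3GAL1 C by -0.23 and -1.43.

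For B4GALT5 the size depended on the somatic sample. On B4GALT5 A the iPS mean was 0.40 ± 0.34 (SD, n = 4) and the difference 2.79 (SE 0.88, limma adjusted p = 0.297), but it was 1.03 against PEF alone and 4.56 against PAFSC alone. B4GALT5 B gave 1.76 with both, 0.61 against PEF and 2.92 against PAFSC. B4GALT5 C gave -0.29, 0.00 and -0.58. Against PAFSC only B4GALT5 C was below 0, and there PAFSC lay inside the range of the iPS lines, so its direction is not clear.

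Several other genes turned direction with the somatic sample used. The iPS mean of ST3GAL2 differed by -1.83 from PAFSC and by 0.56 from PEF, and all 4 lines lay between the somatic samples. FUT2 behaved likewise, with -2.12 against PAFSC and 0.49 against PEF, but with median centring iPSCs-w lay below PEF. B3GNT5 went the other way, with 1.99 against PAFSC and -1 against PEF. B3GALNT1 A differed by 0.80 from PEF and 2.51 from PAFSC, whereas B3GALNT1 B differed by 0.15 and -2.20. B4GALT1 kept its direction, with 0.33 against PEF and 1.05 against PAFSC (SE 0.67 each, limma adjusted p = 0.882 and 0.227). FUT1 differed by 0.01 with both samples, by -0.28 from PAFSC and by 0.29 from PEF.

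Over the 14 probe sets limma called 0 against both somatic samples, where it called 0.025% of all probe sets, and 4 of the 14 had an unadjusted p under 0.05, against 13.7%. The iPS lines did not overlap the somatic samples for 3 of the 14, which is 21.4% where 21.9% of all probe sets did. B4GALT5 A was the 1 higher, against 11.9%, and the ST3GAL1 pair the 2 lower, against 9.99%. For that pair the placement of PS24 below PAFSC did not hold with median centring. The median difference over the 14 was -0.46, with 6 above 0, and over all probe sets -0.34, with 39.1% above 0. Against PEF alone limma called 0 of the 14, where it called 0.567%, and 2 of the 14 had an unadjusted p under 0.05, against 12.3%. Against PAFSC alone it called 9 of the 14, but 59.6% of all probe sets were called there too. B4GALT5 A had the largest of these differences, 4.56 (SE 0.37, limma adjusted p = 0.00117). In these last fits the lone somatic sample was assumed to vary like the iPS lines.

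**Figure D3:**
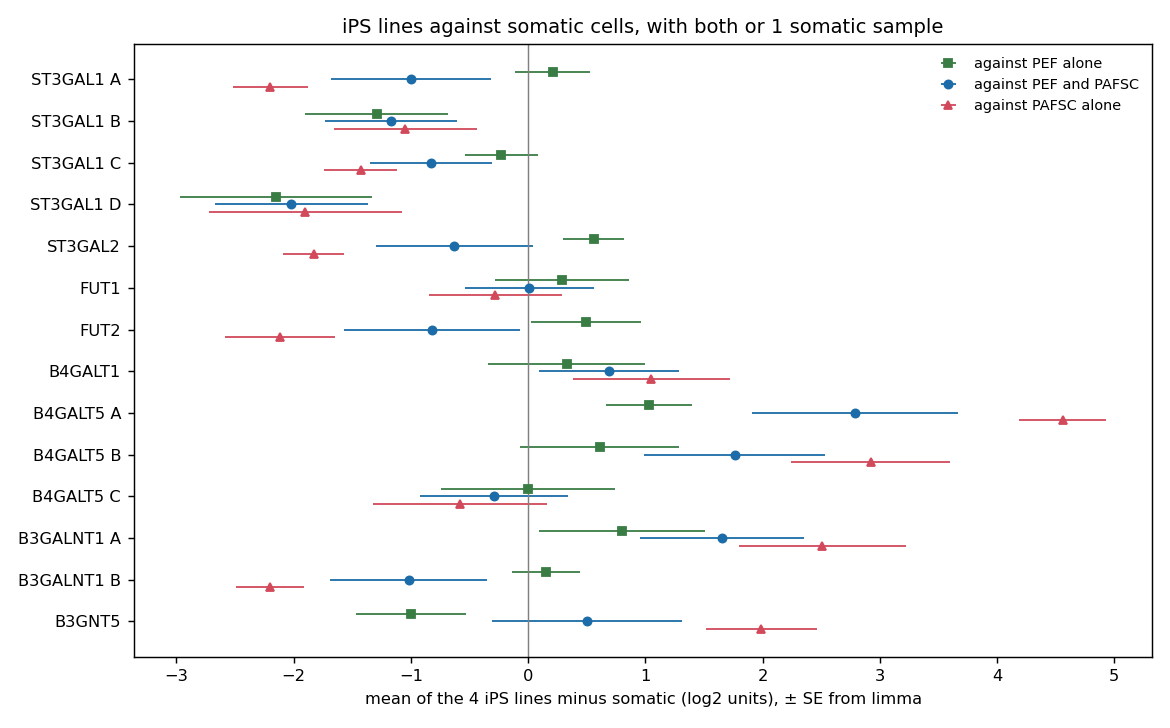
Points are the mean of the 4 iPS lines minus the somatic value in log2 units (horizontal axis) for each of the 14 probe sets, with limma's standard error, against PEF alone (green squares), both somatic samples (blue circles) and PAFSC alone (red triangles). For 2 ST3GAL1 probe sets the 3 values nearly coincide on the deposited scale (-2.15, -2.02 and -1.90 for the lower one), though PEF and PAFSC are further apart when the arrays are rescaled, while for ST3GAL2, FUT2 and B3GNT5 they lie on both sides of 0.

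PEF and PAFSC differed from each other by more than 1 log2 unit for 9 of the 14 probe sets, where 70.3% of all probe sets did. PAFSC was the higher for 5, ST3GAL1 A and C, ST3GAL2, FUT2 and B3GALNT1 B, against 44.6% of all. It was the lower for 4, B4GALT5 A and B, B3GALNT1 A and B3GNT5, against 25.7%. The largest differences (PEF minus PAFSC) were 3.53 for B4GALT5 A and 2.99 for B3GNT5. With each array centred and brought to a common spread, 3 of the 14 were past 1 log2 unit, where 23.2% of all probe sets were. They were ST3GAL1 B at 1.72, ST3GAL1 D at 2.43 and B3GNT5 at 1.86, of which B3GNT5 alone was among the 9.

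Other genes that make, supply or break down these glycans put the 8 in context. Of 110 listed, 48 were measured, and limma called 0 of the 48 in the SSEA1 comparison, where 0.0148% of all genes were called; 7 had a probe set with an unadjusted p under 0.05, against 14.8% of all genes. The values below are means over a gene's probe sets. The SSEA1-labelled lines were higher without overlap for 8 of the 48, against 20.3% of all genes, and lower for 14, against 23.4%. The median difference was -0.13, and -0.03 over all genes. In the comparison by SSEA3 and SSEA4 limma called 0 of the 48, against 0% of all genes, and 2 had an unadjusted p under 0.05, against 6.46%. In it 18 were higher without overlap, against 26.7% of all genes, and 8 lower, against 22.3%. Between iPS and both somatic samples it called 0 of the 48, against 0.0148%, and 7 had an unadjusted p under 0.05, against 21.6%, with 6 higher without overlap, against 17.4%, and 10 lower, against 11%. Against PEF alone it called 1 of the 48, against 0.813% of all genes, with all iPS lines above PEF for 9, against 35.1%, and below it for 13, against 20.6%. The 1 was a probe set of PSAP, the precursor of the saposins that help lysosomal enzymes reach glycolipids. It was 2.39 in PEF against -0.25 to 0.17 in the iPS lines, a difference of -2.41 (SE 0.28, limma adjusted p = 0.0468), while the other PSAP probe set differed by -0.37 (limma adjusted p = 0.736).

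By list, the SSEA1 differences of the genes measured, members included, were above 0 for 5 of 6 on the globo and blood group H route (median 0.32) and for 1 of 7 of the lacto, neolacto and Lewis x chains (median -0.08). They were above 0 for 3 of 3 of the glycolipid core (median 0.43) and for 4 of 5 other sialyl- and fucosyltransferases (median 0.21). For glycolipid breakdown it was 3 of 10 (median -0.30), for nucleotide sugar supply 6 of 18 (median -0.29) and for branching 4 of 8 (median -0.06). Over all genes 46.5% were above 0.

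Enzymes of the lacto and neolacto chains did not all follow B4GALT1. Its relative B4GALT4, also a galactosyltransferase of N-acetyllactosamine, was -2.20 and -0.66 in PS24 and 30AC5, against 0.67 and 1.29 in iPF4-2 and iPSCs-w. The difference was -2.41 (SE 0.58, limma adjusted p = 0.267), opposite in sign to B4GALT1. B3GNT3, which extends such chains on mucin-type glycans, was -0.97 and 0.21 against 1.55 and 2.15, a difference of -2.23 (SE 0.49, limma adjusted p = 0.232). B4GALT3 differed by -0.04.

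Among the other sialyltransferases, ST6GAL1, which caps N-acetyllactosamine with sialic acid, was -1.05 and -1.01 in the SSEA1-labelled lines against 1.82 in iPF4-2 and 0.13 in iPSCs-w. Its probe sets differed by -2.26 and -1.74 (limma adjusted p = 0.308 and 0.390). ST8SIA4, a polysialyltransferase, was 0.48 and -0.04 against -0.12 and -2.35. Its probe sets differed by 0.87 and 2.03 (limma adjusted p = 0.562 and 0.666). On the second, iPSCs-w alone was low, at -4.06 against -0.01 in iPF4-2 and 0 in PS24 and 30AC5. ST6GALNAC5, a sialyltransferase of gangliosides, was 0.93 and 0.59 against -0.42 and -0.52, a difference of 1.23 (SE 0.27, limma adjusted p = 0.232). None of these 3 passed the test in limma.

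**Figure D4:**
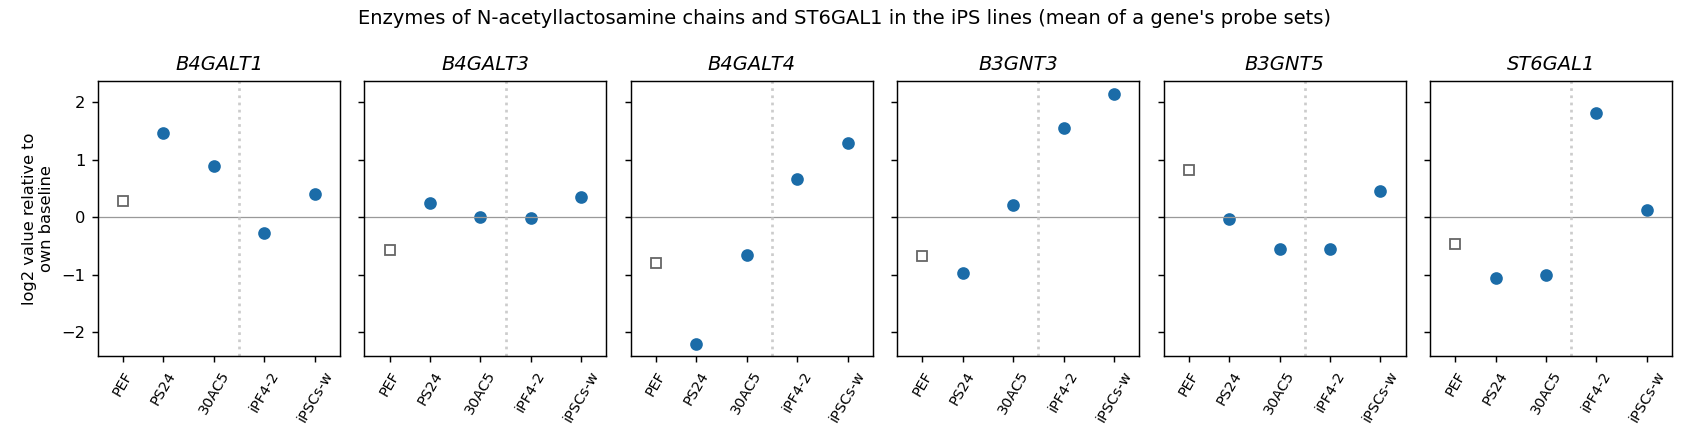
Filled points are log2 values (vertical axis, relative to each gene's own baseline, so levels cannot be compared between panels) of 6 glycosyltransferase genes in the 4 iPS lines, and open squares are PEF; the dotted line separates the SSEA1-labelled lines on the left. B4GALT1 is higher on the left (1.47 and 0.89), whereas B4GALT4 (-2.20 and -0.66), B3GNT3 and ST6GAL1 are lower there.

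Genes of sugar supply and glycan removal were named by the same rule. FPGT, an enzyme of fucose salvage that yields GDP-fucose, was 0.47 and 1.54 in PS24 and 30AC5 against 0.02 and -0.50 in iPF4-2 and iPSCs-w. Its probe sets differed by 0.89 and 1.59 (limma adjusted p = 0.484 and 0.408). SLC35A3, a Golgi transporter of UDP-N-acetylglucosamine, differed by -0.80 (SE 0.43), with iPSCs-w highest at 0.86. GLA, the lysosomal galactosidase that removes the end sugar of globotriose, differed by -1.18 (SE 0.53), again with iPSCs-w highest at 1.41. ASAH1, acid ceramidase, differed by -1.42 (SE 0.65) with iPSCs-w at 1.88.

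GALNT7, which adds N-acetylgalactosamine to protein, was 1.91 in PS24 and 1.91 in 30AC5 against 0.84 and 0.95, a difference of 1.02 (SE 0.25, limma adjusted p = 0.271). C1GALT1C1, the chaperone of the enzyme that builds core O-glycans, was -0.53 and -1.10 against -0.29 and -0.22. On the globo route the rule named B3GALNT1 and ST3GAL2, both described above. ABO, the blood group glycosyltransferase at the end of that route, differed by 0.35.

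Genes whose pattern over the 6 arrays was closest to a member were found by the RMS difference of centred values among named genes, as a description. For ST3GAL1 D they were RAMP2 at 0.26, MAP2 at 0.32 and CCDC80 at 0.38. For B3GALNT1 A they were TAMM41 at 0.23, EEF1E1 at 0.27 and MRPS36 at 0.31. For B4GALT5 A they were PNPT1 at 0.14, PERP at 0.18 and APOF at 0.20.

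B3GNT5 was closest to ASB6 at 0.13, PGM1 at 0.14 and ARFGAP3 at 0.19. FUT2 was closest to PPP1R15B at 0.08, GATA3 at 0.08 and MYH2 at 0.11. ST3GAL2 was closest to SPATA4 at 0.05, VNN2 at 0.06 and RER1 at 0.06. B4GALT5 B was closest to MRPL33 at 0.24, OTULIN at 0.28 and VPS26B at 0.28, ST3GAL1 A to ZER1 at 0.07, RSPH14 at 0.07 and SLC7A7 at 0.08, and B3GALNT1 B to TLR9 at 0.05, TBXAS1 at 0.06 and CACUL1 at 0.07. For ST3GAL2, FUT2, ST3GAL1 A and B3GALNT1 B the PAFSC array is the highest, and it makes up most of the range these patterns share. For B4GALT5 A, B4GALT5 B and B3GNT5 the PAFSC array is the lowest and again makes up most of the range. The 6 arrays spanned 4.98, 3.96 and 2.99 there, against 0.77, 1.67 and 1.01 over the iPS lines. PAFSC is also the lowest array for B3GALNT1 A.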

How the data were processed

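Per the labels' protocols, biotin-labelled target from total RNA was read on Affymetrix Pig Genome Arrays. The authors deposited log2 values for 24123 probe sets on 6 arrays. How they normalized the arrays, with which software and to which baseline, is not given in the sources used here. Array controls, 124 in all, were left out. The platform annotation gave 1 symbol to 10069 of the 23999 remaining probe sets, several to 198 and none to 13732; all 14 member probe sets matched the RefSeq gene table by gene ID.

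Comparisons used limma 3.58.1 in R 4.3.3 (lmFit, then eBayes). The two-sided p was adjusted by Benjamini-Hochberg across the 23999 probe sets and called under 0.05. The fits were checked on simulated data that gave each probe set the same spread on every array. That check does not cover the wider spread of the PAFSC array. The 2 comparisons of marker labels used the 4 iPS lines (2 residual degrees of freedom), and iPS against somatic all 6 arrays (4). Pairs of single arrays have no test and were read against 1 log2 unit.

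All member probe sets are named. Of other glycan genes, the 2 per list with the largest SSEA1 difference without overlap are named, and for members with a range of 2 or more the 3 genes closest in pattern; B4GALT3, ABO, PSAP and single marker genes were added after their values were seen. Members and lists were chosen with earlier results of these data known. Alternatives were quantile normalization, median centring, a common spread, robust eBayes (statmod), a filter on ranges under 1, all 6 arrays and leaving out each sample. The number of arrays limits the precision.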

Additional observations from a re-analysis of the deposited data

How the results depend on the processing

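Limma called 0 of the 14 probe sets in every alternative of the 3 tested comparisons except against PAFSC alone, where it called 9. Over all probe sets the iPS against somatic count was 6; it was 1 with median centring, 0 with a common spread, 66 with the range filter, and 0 to 14303 with 1 sample left out. The SSEA1 count was 4; it was 90 with quantile normalization, 2 with median centring or robust eBayes, 18 with the range filter, and 0 with a common spread, with all 6 arrays and with each line left out. The SSEA3/SSEA4 count was 0 in all settings. Members past 1 log2 unit numbered 3 with a common spread for PEF against PAFSC (9 as reported), where the share of all probe sets went from 70.3% to 23.2%. With quantile normalization and a common spread they numbered 6 and 4 for iPF4-2 against iPSCs-w (2 as reported), where the share of all went from 10.3% to 22.1% and 17.5%. They numbered 5 and 5 for PS24 against 30AC5 (3 as reported), where it went from 11.1% to 22.8% and 18.2%.

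Signs changed with scaling for iPS against somatic in ST3GAL2 (0.25 with quantile normalization, 0.29 with a common spread), B3GNT5 (-0.43 and -0.44), FUT2 (0.06 with a common spread) and B4GALT5 C (0.01 with median centring). For PEF against PAFSC they changed in ST3GAL1 C (0.11 and 0.03) and B3GALNT1 A (-0.38 and -0.16), with quantile normalization and a common spread, and from smaller values in FUT1 (0.02, 0.03, and 0.19 with median centring) and B4GALT5 C (0.17 with median centring). For SSEA3/SSEA4, B4GALT5 C was 0.00 with median centring. The cause was not tested.

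With 1 sample left out, iPS against somatic ran from -2.20 to 0.21 for ST3GAL1 A, -1.83 to 0.56 for ST3GAL2, -0.28 to 0.31 for FUT1, -2.12 to 0.49 for FUT2, -0.68 to 0.00 for B4GALT5 C, -2.20 to 0.15 for B3GALNT1 B and -1 to 1.99 for B3GNT5. SSEA1 differences ran from -0.18 to 0.75 for FUT2, -0.28 to 1.30 for B4GALT5 B, -1.36 to 0.61 for B4GALT5 C, -0.33 to 0.06 for B3GALNT1 B and -0.74 to 0.25 for B3GNT5. SSEA3/SSEA4 differences ran from -0.11 to 0.65 and -0.28 to 0.81 for ST3GAL1 B and ST3GAL1 D, -0.47 to 0.23 for FUT1, -0.83 to 0.05 for B4GALT1, -0.56 to 0.42 for B4GALT5 C and -0.22 to 0.71 for B3GALNT1 A. Without 30AC5 this comparison has no value. No paired analysis was possible because the labels number no replicates across groups.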

Other observations

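Glycolipid breakdown genes had mostly lower values in the iPS lines than in the somatic cells, though against both samples none passed the test: 8 of 10 measured differences were below 0, with a median of -0.64 against -0.06 over all genes, of which 48.1% were above 0. Against PEF alone 7 of 10 were below 0, with a median of -0.39 against 0.15 over all genes, of which 38.5% were below 0. All 4 iPS lines lay below both somatic samples for 4 of the 10, HEXA, GM2A, PSAP and ARSA, where 11% of all genes were so placed. HEXA was 0.30 in PAFSC and 0.02 in iPSCs-w, closer together than the medians of those arrays, 0.70 and 0.01. Its placement therefore depends on the scale of PAFSC. ARSA, the sulfatide-degrading arylsulfatase, was 1.00 in PEF and 1.93 in PAFSC, against -0.36 in PS24, 0.10 in iPF4-2, -0.10 in iPSCs-w and 0.53 in 30AC5. PSAP as the mean of its probe sets was 1.49 in PEF but 0.28 in PAFSC, close to the 0.24 of 30AC5, and its smallest limma adjusted p was 0.167. Its probe sets did not share this placement. On 1 of them PAFSC was at -1.47, below all iPS lines, and PS24 was at 0.61 against 0.60 in PEF.

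In the list of nucleotide sugar supply, UGP2 makes UDP-glucose. As the mean of its 2 probe sets, UGP2 was 1.97 in PEF and 0.62 in PAFSC against -0.43 to 0.11 in the iPS lines. Whether this placement holds on each probe set is not given here. GNE, the first enzyme of sialic acid synthesis, was -0.41 and -1.78 against -0.04 to 0.11. Of the 18 measured genes of this list 12 had differences above 0 against both somatic samples, where 48.1% of all genes did, and 10 against PEF alone, where 61.5% did. The smallest limma adjusted p of UGP2 was 0.200. GALNT7, which is in the branching list instead, was -0.64 in PEF and -0.12 in PAFSC, below all 4 iPS lines (limma adjusted p = 0.284). Over all genes 17.4% were higher in the iPS lines without overlap. The genes named here were chosen after their values were seen.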
